A study of Ovis aries with 8 samples.

Results

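The insulin-like growth factor (IGF) axis was followed on arrays of fetal sheep carotid artery through 10 genes of the 679 named on the array, which had 21 of its 15008 probes. The genes were the ligands IGF1 and IGF2, the receptors IGF1R and IGF2R, and the binding proteins IGFBP1 to IGFBP6. A probe was a member where its name, or its description where the name was a locus number, gave one of these genes. IGFBP3 (2 probes) and IGF2R (3 probes) were chosen on their measured difference between the groups, so those differences are given as a description with no test. The other 8 genes were added as the rest of the family.

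The study measured total RNA of whole carotid arteries from 8 fetuses at gestation day 140, with 1 Cy3 array per fetus. In the hypoxia group, the ewes of 4 fetuses lived at 3801 m from gestation day 30 to day 135, and the titles give 110 days of hypoxia. In the normoxia group, the ewes of 4 fetuses stayed at 300 m. Ewes of both groups were fed alfalfa pellets and kept in natural day and night. The labels separate the fetuses of a group by a number only, and the spread that enters a p-value may be technical.

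IGF1 and IGF2 are secreted peptides that drive fetal growth through IGF1R, a receptor tyrosine kinase. IGF2R, which is also the cation-independent mannose-6-phosphate receptor, takes up IGF2 for degradation in lysosomes and sorts lysosomal enzymes. The binding proteins hold IGFs in the circulation and in the matrix around cells, and thereby set how much ligand reaches the receptor. In arteries, smooth muscle cells both make and answer to IGFs.

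The 75th percentile of the processed signal ran from 97.9 to 1387 across arrays, and 59.6% to 94.8% of probes were well above background. All levels are log2 signals relative to that percentile of the same array, and they are not comparable between probes. The 3 measured smooth muscle markers of 12 listed (CNN1, MYL6 and MYLK) were well above background on every array, with medians from 4.98 on hypoxia 1 to 8.66 on normoxia 4. Arrays of the same number in the 2 groups deviated together from their group means. Over all features, replicate number held a median of 70.7% of the sum of squares and group 6.70%. Number has more levels than group, so it would hold the larger share even without an effect. Of 10915 features, limma called 0 at a Benjamini-Hochberg adjusted p of 0.05 (0%), and 399 had an unadjusted p below that. The number of arrays, 4 in each group, is one limit on precision, and the unadjusted count was 1311 with the replicate number as a block.

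Both probes of IGFBP3, the main carrier of IGFs in plasma, were brighter in the hypoxia arrays. Probe A_70_P041806 had log2 levels of 3.15, 3.20, 2.59 and 3.56 on hypoxia arrays 1 to 4. On normoxia arrays 1 to 4 the levels were 2.92, 1.76, 1.28 and 1.21. A single array made the groups overlap, since normoxia 1 lay above hypoxia 3, while normoxia 2, 3 and 4 lay below every hypoxia array. The second probe, A_70_P041807, had 2.76, 2.63, 2.09 and 2.87 in hypoxia and 2.45, 1.08, 0.79 and 0.57 in normoxia. It placed the arrays in nearly the same order, with the same single overlap.

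The group means of IGFBP3 were 3.12 ± 0.40 in hypoxia and 1.79 ± 0.79 in normoxia (mean ± SD, n = 4 each). The log2 difference was 1.33 (SE 0.43) for the first probe and 1.36 (SE 0.44) for the second. Within the same-numbered pairs, hypoxia minus normoxia was 0.23, 1.44, 1.32 and 2.35 for numbers 1 to 4. The sign was thus the same in 4 of 4 pairs, which 13.7% of all features also showed. Of all features, 1.96% had a difference as large as that of IGFBP3.

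The size of the IGFBP3 difference varied with the array that stood for normoxia. Slide 1 held normoxia 1 with hypoxia 1, 2 and 3, and within it the difference was 0.06. Slide 2 held normoxia 2 with hypoxia 4, and within it the difference was 1.80. Slide 3 held only normoxia 3 and 4, the arrays with the lowest IGFBP3 levels. With slide as a block the log2 difference was 0.75. Leaving out 1 array at a time gave 1.14 to 1.71. The highest of these came without normoxia 1, the normoxia array with the highest IGFBP3 level.

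**Figure D1:**
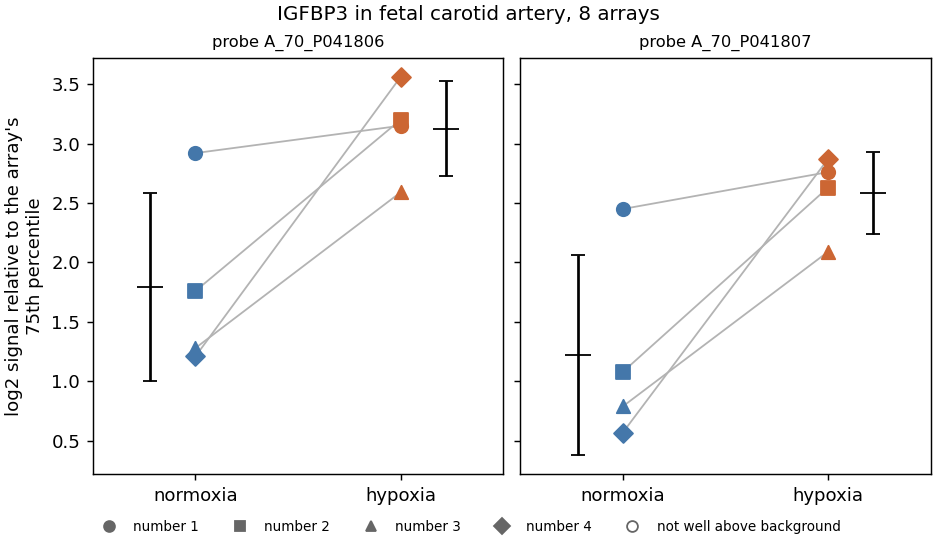
Log2 level of the 2 IGFBP3 probes on each array (vertical axis, relative to the 75th percentile of the array) in normoxia and hypoxia, with a marker shape and a grey line for each replicate number and black bars for the mean and SD of 4 arrays. All 4 lines go up in both panels, from a difference of 0.23 for number 1 to 2.35 for number 4 on A_70_P041806.

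IGF2R was read by 3 probes from 2 source sequences, and these sources gave different patterns. The probes named IGF-IIR on the array, A_70_P041802 and A_70_P041801, were brighter in hypoxia. The probe named M6P/IGF2R, A_70_P026306, was not.

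A_70_P041802 had log2 levels of -2.27, -0.09, -0.05 and -1.73 on hypoxia arrays 1 to 4 and of -4.00, -2.50, -1.73 and -5.83 on normoxia arrays 1 to 4. The lowest hypoxia array, number 1, lay below normoxia 3, so the groups overlapped. The probe was well above background on 4 hypoxia arrays but on only 2 normoxia arrays, and the values of normoxia 1 and 4 did not pass that call. The means were -1.04 ± 1.13 in hypoxia and -3.51 ± 1.81 in normoxia (mean ± SD, n = 4 each), a log2 difference of 2.48 (SE 0.95). Of all features, 0.0458% had a difference at least as large, a share that rests in part on those 2 normoxia spots at background. Without normoxia 4 the difference was 1.71.

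The companion probe A_70_P041801 had -3.25, -0.35, -0.14 and -1.79 in hypoxia and -3.74, -2.84, -2.76 and -3.53 in normoxia. Hypoxia 2, 3 and 4 lay above every normoxia array, and hypoxia 1 lay below normoxia 2 and 3. It passed the background call on all arrays but normoxia 1 and hypoxia 1. The log2 difference was 1.84 (SE 0.69). Both IGF-IIR probes were higher in hypoxia in 4 of 4 pairs, a pattern that 13.7% of all features showed. Some of these pairs, though, held a spot that failed the background call. Pairs with both spots past it were numbers 2 and 3 for A_70_P041802, at 2.40 and 1.68, and numbers 2, 3 and 4 for A_70_P041801, at 2.49, 2.62 and 1.74. The pair of number 1 on A_70_P041801, at 0.49, had neither spot past the call.

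Within slide 2, where all IGF-IIR spots passed the background call, the difference was 0.76 for A_70_P041802 and 1.05 for A_70_P041801. Within slide 1 it was 3.20 and 2.49, but the only normoxia array there, number 1, failed the call with both probes, so these sizes rest on a spot at background. With slide as a block, which uses the same spot, it was 2.22 and 1.92. When values not well above background were raised to the lowest well-above-background signal of their array, the differences were 1.70 and 1.79. With normexp background correction they were 0.63 and 0.71.

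The M6P/IGF2R probe varied over a wider range than any other family probe, 6.85 log2 units. Its levels were -0.85, -4.76, -0.88 and -6.53 on hypoxia arrays 1 to 4 and 0.10, -6.75, -1.85 and -3.44 on normoxia arrays 1 to 4. It was high on numbers 1 and 3 of both groups and low on numbers 2 and 4. Its group means were -3.25 ± 2.85 in hypoxia and -2.99 ± 2.90 in normoxia (mean ± SD, n = 4 each). Group held 0.290% of its sum of squares and replicate number 84.5%, against 49.2% and 40.4% for A_70_P041801. Its spots passed the background call on 3 arrays of normoxia and 2 of hypoxia. Those of normoxia 2, hypoxia 2 and hypoxia 4 failed it, so its range, SDs and shares rest in part on values at background. Pairs with both spots past the call were numbers 1 and 3, at -0.95 and 0.98. Where on the transcript each probe lies was not analysed here.

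**Figure D2:**
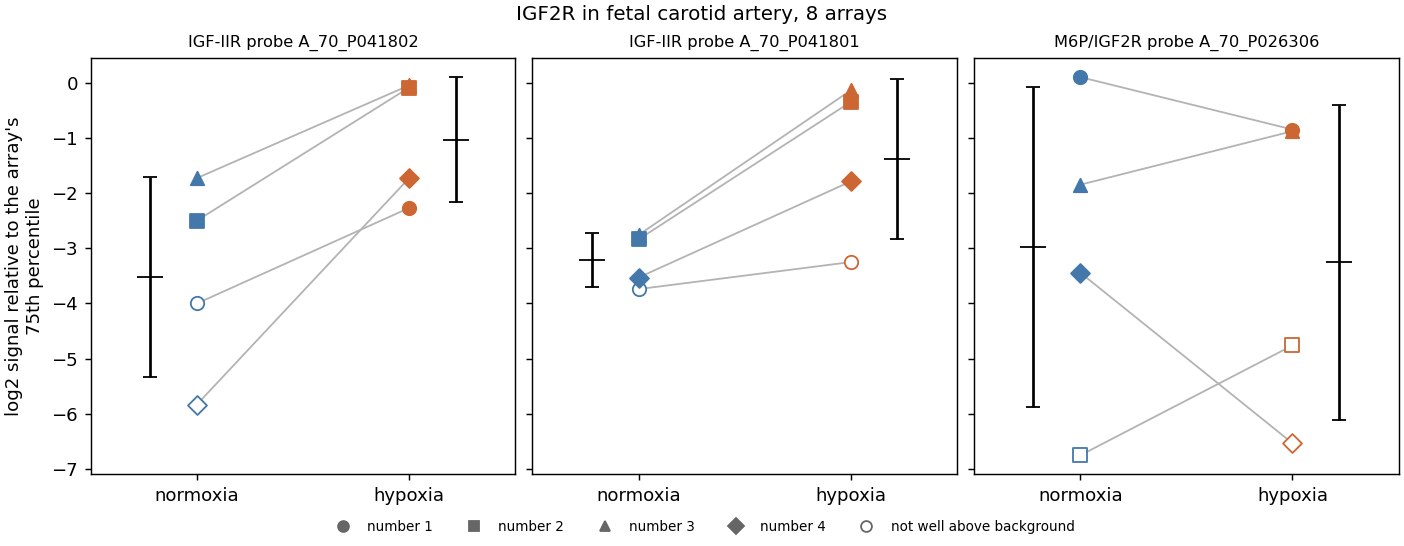
Log2 level of the 3 IGF2R probes on each array, drawn as for IGFBP3, with open markers where the spot was not well above background. The 4 lines of each IGF-IIR probe go up, with mean differences of 2.48 and 1.84, while the lines of the M6P/IGF2R probe cross and its mean difference is -0.27.

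Markers of other cell types were set beside these probes. In the list of fibroblast markers, 3 of 8 were measured, 2 of them higher in hypoxia, and the one at the median on every array was COL3A1, a fibrillar collagen. Its levels were 1.53, 2.03, 3.73 and 1.69 in hypoxia and -0.22, 0.08, 2.64 and -0.72 in normoxia. In log2 units, the summed level of the 3 markers was 4.55 to 7.46 in hypoxia and 4.59 to 6.09 in normoxia. DCN, the brightest of the 3 on every array, weighed most in this sum. Its log2 difference was -0.15, against 1.80 for COL3A1 and 0.96 for COL1A1. Their part in the IGF-IIR result was not tested. Over the 8 arrays, the median of 6 marker lists followed the M6P/IGF2R probe. The Pearson correlation was 0.970 for adipocytes, 0.947 for skeletal muscle, 0.905 for liver, 0.896 for erythroid cells, 0.834 for leukocytes and 0.808 for endothelium. For fibroblasts it was 0.186 and for smooth muscle -0.579. The median of all probes was also higher on numbers 1 and 3 of both groups. As a ratio to the scaling percentile, this median was 0.328, 0.132, 0.228 and 0.137 on normoxia arrays 1 to 4. On hypoxia arrays 1 to 4 it was 0.326, 0.158, 0.308 and 0.141. How far this shared pattern accounts for the correlations was not tested. The correlations are descriptions over arrays that share brightness and slide, and the part of these cells in the result was not tested. Some of the shared low values were at background. On normoxia 2 the M6P/IGF2R probe, UCP1, MYH2, ALB and CD4 were all at -6.75. The lowest well-above-background level of that array was -4.45. The median of 4 measured adipocyte markers of 8 listed (FABP4, LEP, PLIN1 and UCP1) was -1.34, -4.62, -1.88 and -5.20 in hypoxia and -1.16, -4.58, -2.61 and -3.03 in normoxia. Their summed level was -2.78 to 0.66 in hypoxia and -1.25 to 0.77 in normoxia, and on arrays normoxia 2, hypoxia 2 and hypoxia 4 only 2 of the 4 passed the background call. The median of 3 measured skeletal muscle markers of 9 listed (MYH1, MYH2 and MYOG) was -1.34, -5.87, -2.18 and -7.96 in hypoxia and -1.31, -5.56, -2.88 and -4.27 in normoxia. Their summed level was -6.25 to 0.12 in hypoxia and -4.27 to 0.16 in normoxia, and on arrays normoxia 2, hypoxia 2 and hypoxia 4 the background call was passed by 0 of the 3. In whole arteries, fewer cells of a type and less RNA per cell cannot be told apart.

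Neither ligand passed the test between groups. IGF1, a ligand of IGF1R, had log2 levels of 1.69, -2.83, 0.22 and -3.13 on hypoxia arrays 1 to 4 and 1.02, -2.08, -0.18 and -0.97 on normoxia arrays 1 to 4. After scaling, it was thus highest on number 1 of both groups, and the hypoxia arrays spanned the whole normoxia range. Before scaling, it was 315 on hypoxia 1 and 254 on normoxia 1, against 1442 on hypoxia 3 and 1223 on normoxia 3. The log2 difference was -0.46 (SE 1.18), with a 95% interval of -3.19 to 2.27 and a limma adjusted p of 0.998. Hypoxia was higher in 2 of 4 pairs, and replicate number held 86.8% of the sum of squares. IGF1 was high on the same arrays as the adipocyte and skeletal muscle markers above, and as the median of all probes. The part of these cells in its spread was not tested.

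IGF2, the ligand cleared by IGF2R, was read by 2 probes that were well above background on all arrays. A_70_P016796 had 7.92, 6.39, 5.39 and 5.23 in hypoxia and 6.99, 5.48, 5.29 and 5.02 in normoxia. Each hypoxia array lay above its same-numbered normoxia array, by 0.93, 0.90, 0.10 and 0.22, yet the groups overlapped widely. The log2 difference was 0.54 (SE 0.69), with a 95% interval of -1.05 to 2.12 and a limma adjusted p of 0.998. With the replicate number as a block the limma adjusted p was 0.439. The second probe, A_70_P029956, gave 0.51 and was also higher in 4 of 4 pairs, a pattern that 13.7% of all features showed. Within slide 1 the first probe was at -0.42 and within slide 2 at -0.25, so its sign was turned within both slides. The second probe was at -0.90 within slide 1 and 0.04 within slide 2.

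**Figure D3:**
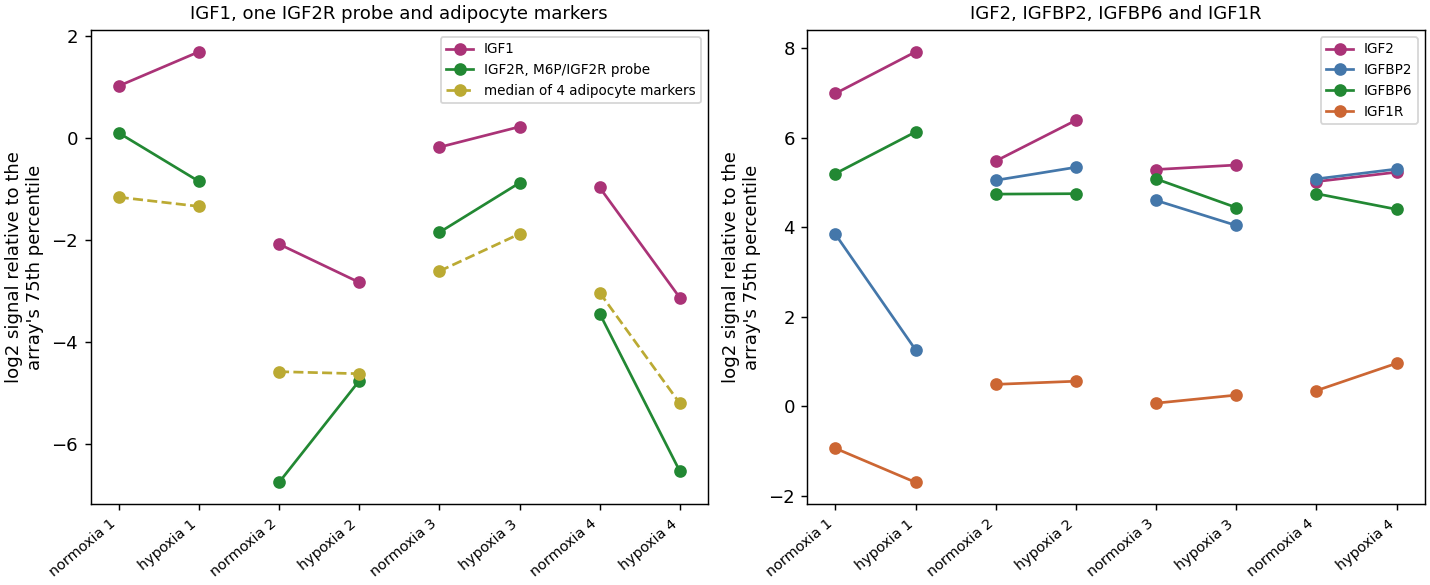
Log2 level on each array, relative to the 75th percentile of the array, with the 2 arrays of each number side by side and joined by a line. The left panel shows IGF1, the M6P/IGF2R probe and the median of 4 adipocyte markers, all high on numbers 1 and 3, and the right panel shows IGF2 and IGFBP6, highest on hypoxia 1 at 7.92 and 6.13, with IGFBP2 and IGF1R, lowest there at 1.26 and -1.70.

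IGF1R, the signalling receptor, had 3 probes from different sequences that did not give the same order of arrays. A_70_P041041, the brightest, had -1.70, 0.56, 0.25 and 0.96 in hypoxia and -0.94, 0.49, 0.07 and 0.35 in normoxia. It was lowest on number 1 of both groups, and its log2 difference was 0.03 (SE 0.62; limma adjusted p = 0.998), with a 95% interval of -1.40 to 1.45. A_70_P008176 gave 0.49 (SE 0.45) and A_70_P026721 gave 0.92 (SE 0.52).

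A_70_P026721 was the only one of the 21 family probes whose groups did not overlap. Its levels were -2.61, -2.61, -1.64 and -2.54 in hypoxia and -2.68, -2.98, -2.65 and -4.78 in normoxia and normoxia 3 lay just below the lowest hypoxia arrays. Of all features, 1.69% had all hypoxia arrays above all normoxia arrays and 0.971% all below. Its spots passed the background call on 3 arrays of either group. Those that failed were normoxia 4 and hypoxia 1, which at -2.61 was one of the lowest hypoxia arrays, so the lack of overlap rests in part on a spot at background. Its limma adjusted p over the 11211 kept probes was 0.998. Without normoxia 4 the difference was 0.42, with slide as a block 0.41 and with normexp -0.14.

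Among the other binding proteins, none of the 4 measured genes passed the test. IGFBP2, a binding protein abundant in the fetus, had 1.26, 5.34, 4.04 and 5.30 in hypoxia and 3.84, 5.05, 4.60 and 5.08 in normoxia (A_70_P050967). Hypoxia 1 lay far below the rest, and the other 3 hypoxia arrays lay among the normoxia values or just above them. The log2 difference was -0.66 (SE 0.89; limma adjusted p = 0.998), with a 95% interval of -2.72 to 1.40, and it changed sign to 0.25 without hypoxia 1. The second probe gave -0.45.

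IGFBP4, which is cut by the protease PAPPA to release IGF, stayed between 5.39 and 6.58 on all arrays. Its log2 difference was -0.10 (SE 0.33; limma adjusted p = 0.998), with a 95% interval of -0.86 to 0.66, and its second probe gave 0.01. IGFBP5, a matrix-binding member, ran from -0.82 to 0.12 in hypoxia and from -1.02 to -0.42 in normoxia. Its log2 difference was 0.17 (SE 0.29; limma adjusted p = 0.998), with a 95% interval of -0.51 to 0.85, and 0.26 from the second probe. IGFBP6, which prefers IGF2 as its ligand, had 6.13, 4.75, 4.44 and 4.40 in hypoxia and 5.20, 4.74, 5.08 and 4.75 in normoxia. Its log2 difference was -0.01 (SE 0.42; limma adjusted p = 0.998), with a 95% interval of -0.97 to 0.95, and -0.13 from the second probe.

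IGFBP1, a binding protein made mainly by the liver, was not well above background on any of the 8 arrays with either of its 2 probes, and no fold is given for it. In the RefSeq gene table of sheep assembly ARS-UI_Ramb_v3.0, IGFBP1 and IGFBP3 are neighbours, with 0 protein-coding genes between them. IGFBP2 and IGFBP5 are neighbours too. IGFBP2 had its lowest level on hypoxia 1, where IGFBP5 was at -0.47, inside its normoxia range.

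Across the family, 19 of 21 probes passed the filter on dim probes, for 9 of 10 genes. Of the 9 genes, 5 were higher and 4 lower in hypoxia, with a median log2 difference of 0.03 against -0.02 over all features. Of the 7 genes not chosen for this contrast, 0 passed by limma and 0 had an unadjusted p under 0.05, against 2.94% of all features higher and 0.715% lower at that level. The count of higher genes was 3 with median scaling and 7 with cyclic loess.

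**Figure D4:**
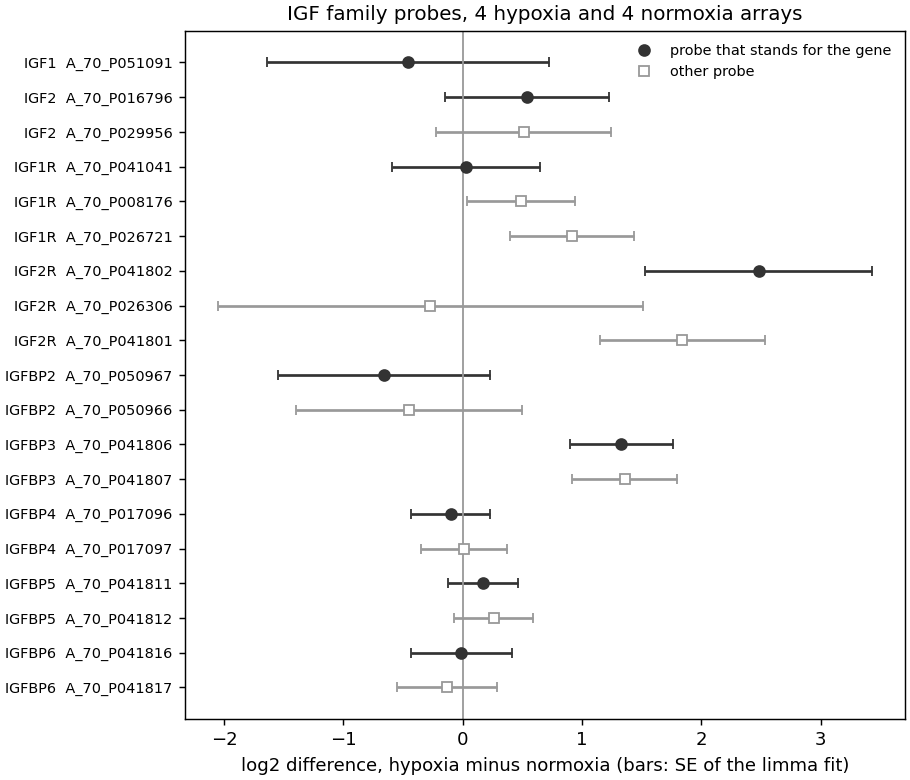
Log2 difference, hypoxia minus normoxia, of the 19 kept family probes (points) with the SE of the limma fit (bars, 4 arrays in each group). The IGFBP3 probes and the 2 IGF-IIR probes of IGF2R lie at 1.33 to 2.48, and the remaining 15 lie between -0.66 and 0.92.

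Probes of one gene gave similar patterns over the arrays for IGFBP2 to IGFBP6 and IGF2, but not for IGF1R and IGF2R. Over the 8 arrays, the Pearson correlation of the 2 probes was 0.993 for IGFBP3 (Spearman 0.976), 0.985 for IGFBP2, 0.964 for IGF2, 0.945 for IGFBP6, 0.942 for IGFBP5 and 0.895 for IGFBP4. It was 0.851 for the 2 IGF-IIR probes, but -0.196 and -0.0930 between each of them and the M6P/IGF2R probe, which passed the background call on 5 arrays. For IGF1R it was 0.917 between A_70_P008176 and A_70_P026721 and -0.392 and -0.105 between each of these and A_70_P041041. These correlations are descriptions over 8 arrays that share brightness and slide.

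The named genes most like IGFBP3 and IGF2R were taken as the 3 with the highest Pearson correlation over the 8 arrays, out of 519 named genes outside the family, as a description. For IGFBP3 they were CYP17A1, a steroid hydroxylase (0.798), BCL2, an inhibitor of apoptosis (0.793), and CSNK1E, a casein kinase (0.772). Their own log2 differences were 0.35, 0.73 and 0.47. For IGF2R, read by A_70_P041802, they were YWHAE, a 14-3-3 protein (0.897), CTSF, a lysosomal protease (0.897), and COL3A1 (0.876). Their log2 differences were 0.55, 1.43 and 1.80. The values of A_70_P041802 on normoxia 1 and 4, its lowest, did not pass the background call. As IGFBP3 and IGF2R were chosen on their group difference, the differences of genes alike to them are not separate evidence. CTSF had levels of -0.23, 0.00, 0.88 and 0.07 in hypoxia and -2.15, -1.08, 0.29 and -2.07 in normoxia, where only normoxia 3 lay among the hypoxia arrays. BCL2 had 0.05, 0.22, -0.43 and -0.51 in hypoxia and 1.13, -0.97, -1.53 and -2.24 in normoxia, where normoxia 1 was the highest of all arrays.

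Genes that act with the IGF axis were taken from a list of 79, of which 12 were on the array under a name and 10 passed the filter. Of these, 7 were higher and 3 lower in hypoxia, with a median log2 difference of 0.34 against -0.02 over all features, and 0 passed by limma. With normexp background correction 4 were higher. STAT5A, a transcription factor activated by the growth hormone receptor, had a mean of -2.92 ± 0.32 in the hypoxia arrays and of -4.05 ± 0.82 in the normoxia arrays (SD, n = 4 each). The log2 difference was 1.13 (SE 0.43; limma adjusted p = 0.998). Its spots passed the background call on 2 normoxia and 4 hypoxia arrays, and the difference changed sign to -0.47 with normexp background correction.

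MMP2, a matrix metalloproteinase that can cleave IGF binding proteins, had a log2 difference of 0.84 (SE 0.51, limma adjusted p = 0.998). It was higher in 4 of 4 pairs, as were 13.7% of all features, and its difference was 0.19 with normexp background correction. CCN1, a matricellular protein, had 0.55 (SE 0.75). At the other end, INSR, the insulin receptor, had a log2 difference of -0.58 (SE 0.38, limma adjusted p = 0.998). It was lower in 4 of 4 pairs, a pattern that 10.6% of all features showed. Its spots passed the background call on 4 normoxia and 3 hypoxia arrays, so 1 of these pairs holds a spot that failed it. MMP14, a membrane-bound metalloproteinase, had -0.33 (SE 1.28) and BAD, a target of AKT in the control of apoptosis, -0.16 (SE 0.23). PAPPA did not pass the filter.

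**Figure D5:**
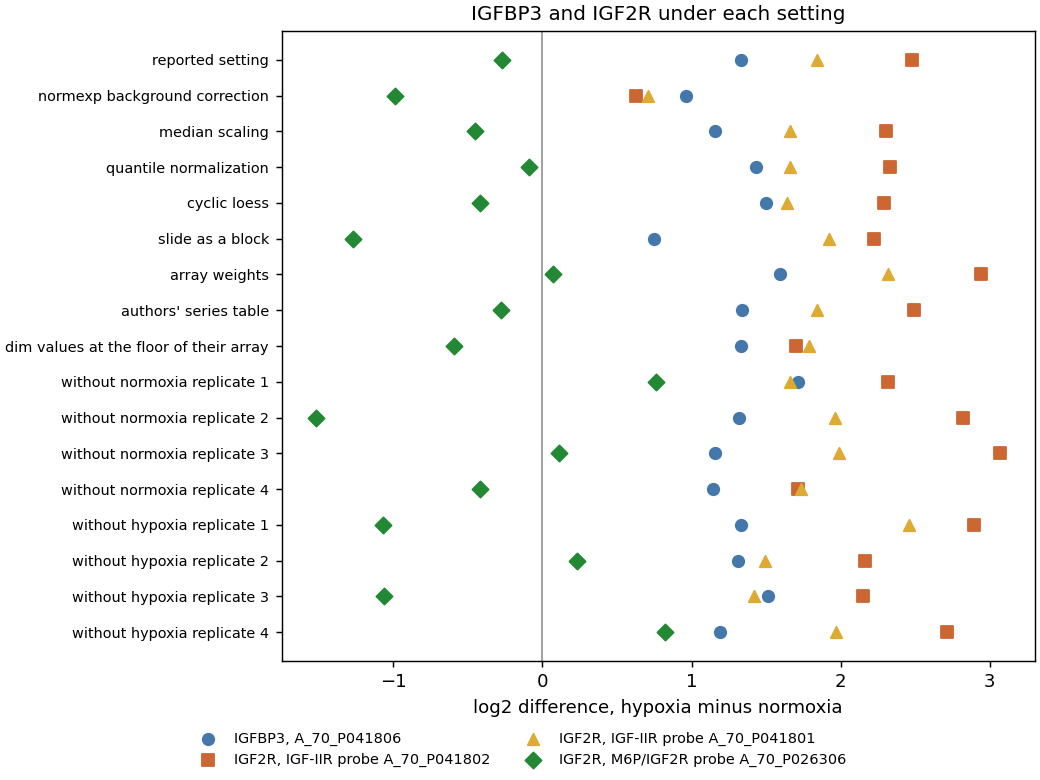
Log2 difference, hypoxia minus normoxia, of IGFBP3 and of the 3 IGF2R probes (horizontal axis) in the reported setting and in the others (vertical axis). IGFBP3 runs from 0.75 with slide as a block to 1.71 without normoxia 1 and the IGF-IIR probe A_70_P041802 from 0.63 with normexp to 3.07 without normoxia 3, while the M6P/IGF2R probe lies on both sides of 0.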

How the data were processed

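Per the file headers, the authors read Agilent design 019921 with Feature Extraction 9.5.3.1 (protocol GE1-v5_95_Feb07), which gave a linear intensity for each spot after spatial and multiplicative detrending. Set against these intensities, the deposited series table is a ratio of processed intensity to the array's 75th percentile. Its scale is linear, and how it was made is not given in the sources used here. Medians of its columns were 0.328, 0.132, 0.228 and 0.137 on the normoxia arrays (1 to 4) and 0.326, 0.158, 0.308 and 0.141 on the hypoxia arrays.

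Of 15744 spots, 536 controls were left out. Outlier spots were dropped, log2 processed intensity was averaged by probe and then centred on the 75th percentile of each array, and 72 probes with a missing value were dropped. Probes well above background on at least 4 of 8 arrays were kept, and the brightest kept probe stood for a named gene. Names came from the files and the RefSeq table (679 genes). The contrast was hypoxia minus normoxia, fitted in limma 3.58.1 under R 4.3.3 (data.table version 1.17.8) and tested first on simulated data. The simulation had independent noise of capped spread, so it checked the code and not the power in these data. P-values were adjusted by Benjamini-Hochberg over 10915 features, with 0.05 as the threshold. Named were the family, the 3 highest and 3 lowest measured genes of the IGF list, and the 3 most alike genes for IGFBP3 and IGF2R. PAPPA was named after its values were seen. The members and lists were chosen with earlier results of these data known.

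Cell type markers were listed for smooth muscle, endothelium, leukocytes, fibroblasts, liver, skeletal muscle, adipocytes and erythroid cells. Of the measured markers, 3 of 4 were higher in hypoxia for endothelium, 0 of 6 for leukocytes, 3 of 6 for liver, 2 of 2 for erythroid cells, 2 of 3 for fibroblasts, 0 of 3 for smooth muscle, 0 of 3 for skeletal muscle and 0 of 4 for adipocytes, and 0 passed by limma.

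Deviations from the group means correlated over features between the 2 arrays of a number, at 0.819, 0.725, 0.582 and 0.432 for numbers 1, 2, 3 and 4. As every value was over 0.1, arrays of one number were treated as pairs. Arrays of different numbers were not compared in this way, so these values do not show that same-numbered arrays are more alike than others. The reported fit has no such block, and its SEs, intervals and p-values are unpaired. The fit with the block is an alternative. What a number shares is not stated in the labels.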

Additional observations from a re-analysis of the deposited data

Results flagged for a closer look

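In 4 of the 38 groups of 4 arrays tested over the family probes, 1 array lay so far from the other 3 that its gap exceeded Dixon's 95% critical value for its share of the group's range. Chance alone does so in about 1 of 20 groups. For IGF1R probe A_70_P026721, hypoxia 3 was at -1.64, above the next array at -2.54 (gap share 0.926), and normoxia 4 was at -4.78, below the next at -2.98 (0.847), where it was not well above background. For IGFBP4, hypoxia 3 was lowest with both probes, at 5.39 against 6.25 with A_70_P017096 (0.890) and at 5.41 against 6.22 with A_70_P017097 (0.854).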

How the results depend on the processing

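No feature passed an adjusted p under 0.05 by limma in any of the 20 alternatives, the replicate block included. The count at an unadjusted p under 0.05, 399, became 23 with normexp (8 higher, 15 lower, against 321 and 78), 137 with median scaling, 192 with slide as a block, 1329 with array weights and 168 to 600 without 1 array. With the replicate block it became 1311, and the block changed no call. IGFBP3 kept its sign throughout, at 1.14 to 1.71 without 1 array. IGF2R was at 0.63 with normexp, at -0.27 with the M6P/IGF2R probe, and at 1.71 to 3.07 without 1 array. The number of the 9 family genes that were higher was 3 with median scaling and 5 to 6 without 1 array, and that of the 10 IGF signalling genes was 4 with normexp and 5 to 8 without 1 array. These genes changed sign: with median scaling IGF1R (-0.15) and IGFBP5 (-0.01), with quantile normalization IGF1R (-0.09), IGFBP4 (0.07) and IGFBP6 (0.02), with cyclic loess IGFBP4 (0.18), IGFBP6 (0.24) and BAD (0.03), with array weights IGFBP2 (0.04), IGFBP4 (0.04) and IGFBP5 (-0.14), with slide as a block IGF2 (-0.35), with the second probe IGFBP4 (0.01) and with normexp STAT5A (-0.47). Without 1 array the range was -1.36 to 0.24 for IGF1, -0.29 to 0.60 for IGF1R, -0.02 to 0.97 for IGF2, -1.11 to 0.25 for IGFBP2, -0.27 to 0.13 for IGFBP4, -0.03 to 0.28 for IGFBP5, -0.41 to 0.16 for IGFBP6, -0.04 to 1.09 for CCN1 and -1.10 to 0.44 for MMP14. The median difference over all features was -0.31 with normexp, -0.20 with median scaling and -0.02 as reported. The cause of these changes was not tested. The setting that raised dim values to the floor was chosen after seeing the data. Signal over background limits IGF2R, IGFBP1, STAT5A, INSR and IGF1R probe A_70_P026721, and kept PAPPA and ITGA5 from being measured.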

Other observations

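Hypoxia 1 held an extreme of several family members and markers. IGFBP2 was at 1.26 there, against 3.84 on the next lowest array, normoxia 1, and IGF1R (A_70_P041041) was at its lowest, -1.70. IGF2, at 7.92, and IGFBP6, at 6.13, were at their highest, but only after scaling. Before scaling, IGF2 (A_70_P016796) was at 23662 there and IGFBP6 (A_70_P041816) at 6847, against 54375 and 47005 on normoxia 3. On the same array the smooth muscle marker CNN1 was at its lowest, 4.98, against 7.06 on the next, and DCN, a proteoglycan of fibroblasts, was at its highest, 7.44, against 5.95 on the next. The signal before scaling was also lowest there for both IGFBP2 probes, at 189 and 234, and for IGFBP3 probe A_70_P041806, at 867. The other IGFBP3 probe, A_70_P041807, was at 665 there and lowest on normoxia 4, at 591. Hypoxia 1 was also the dimmest array, with a 75th percentile of 97.9.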
